A study of Mus musculus with 18 samples.

Results

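The livers of littermate control (LC) mice taken 1 day after myocardial infarction (MI) were compared with the livers of LC mice taken 1 day after sham operation, across every gene with enough reads to be tested. There were 3 LC + MI livers and 3 LC + sham livers among the 18 livers of the series, and 14266 of the 50600 genes in the table were tested. LC mice carry alleles of the mineralocorticoid receptor (MR, the gene Nr3c2) flanked by loxP sites and lack the Cre transgene, so that MR is intact in their hepatocytes. The sample labels call them wild type, of strain C57BL/6 and 12 weeks of age. The paper's methods describe male mice and a permanent ligature on the left anterior descending coronary artery, with the same surgery but no ligature in sham mice. The labels of the MI livers name no operation, which was taken from the design of the series. Livers of hepatocyte MR knockout (HMRKO) mice, which carry the same loxP alleles with Cre under the albumin promoter, are the other genotype of the experiment. At the same time 3 HMRKO + MI and 3 HMRKO + sham livers were taken. They entered the fit, so that the 4 groups share 1 estimate of the spread. Nothing states that livers with the same number were matched, and p-values measure the spread between these livers alone. The purpose of the comparison was to find what the liver changes early after MI.

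The liver responds to injury elsewhere in the body through circulating signals. Interleukin-6 and glucocorticoids are the best known, and together they make hepatocytes secrete acute-phase proteins into plasma. Hepatocytes also run a circadian clock that times much of their metabolism, and they hold a large endoplasmic reticulum (ER) for folding secreted proteins. Whole liver RNA mixes hepatocytes with Kupffer cells (the resident macrophages), endothelial cells, stellate cells and blood, so fewer cells of a type and less RNA per cell cannot be told apart here.

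The LC + MI livers had total counts of 23438424 to 28001094 and the LC + sham livers of 25457546 to 26110605, which overlapped (exact permutation test, two-sided p = 0.7, where 0.1 is the smallest p that 3 livers against 3 can give). Values are given as CPM (counts scaled to a common library size with TMM factors), in the order of replicates 1, 2 and 3. The albumin gene Alb, the defining hepatocyte product, had 34841, 38353 and 45312 CPM in LC + MI livers, against 39381, 37049.8 and 43069.7 CPM in LC + sham livers, with overlapping groups. Mitochondrially encoded genes took 18.9%, 10.9% and 12.3% of the counts in LC + MI livers, against 9.65%, 7.53% and 8.17% in LC + sham livers. All LC + MI livers were above all LC + sham livers, and replicate 1 of LC + MI stood apart from the other 2. It also stood apart on the second principal component of the 6 livers (26.6% of the variance), at 46.7 against -24.3 and -18.4 in the other LC + MI livers. The first component (38.6%) placed the LC + MI livers at 25.6 to 36.2 and the LC + sham livers at -36.9 to -29.2.

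A gene was called where the adjusted p of edgeR's quasi-likelihood test (Benjamini-Hochberg) was below 0.05 and the change exceeded 2-fold. Of the genes tested, 206 were called higher after MI (1.44%) and 149 lower (1.04%), 2.49% in all. At any fold change, 382 were higher (2.68%) and 332 lower (2.33%). The 3 LC + MI livers were all above, or all below, the 3 LC + sham livers for 24.8% of the genes tested (12.6% higher, 12.1% lower), and for 198 of the 206 genes called higher and 146 of the 149 called lower. The calls were made from the same values, so the lack of overlap among called genes is no separate support for them. Replicate 1 of LC + MI passed 2-fold less often than the other 2. It was past 2-fold of the LC + sham mean for 160 of the genes called higher and 104 of those called lower, whereas replicate 2 was for 176 and 144, and replicate 3 for 188 and 144. Replicate 1 was the farthest of the 3 from that mean for 67 of the genes called higher, against 66 and 73 for replicates 2 and 3. For the genes called lower these numbers were 31, 75 and 43. When LC + MI replicate 1 was left out, 275 genes were called higher and 280 lower. Without LC + MI replicate 2 or 3 the numbers were 97 and 43 or 96 and 47, and without LC + sham replicate 2 or 3 they were 110 and 85 or 105 and 96. Of the 355 called genes, 108 had an adjusted p under 0.05 in each of the 6 fits that left out 1 LC liver. A call is said to hold without each liver where the adjusted p stayed under 0.05 in all 6 of these fits, and in sentences on single livers MI 1 to MI 3 and sham 1 to sham 3 name the LC livers left out. In the gene lists below a member counts as changed when its adjusted p is under 0.05, whatever the size of its change. For list members a call refers to the adjusted p alone, and those that changed under 2-fold are not among the 355 called genes. The shares over all genes tested at any fold change, 2.68% higher and 2.33% lower, are to be set beside each list count. The lists were chosen with earlier results of these data known, so a count above these shares is a description and not a test of a list.

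**Figure D1:**
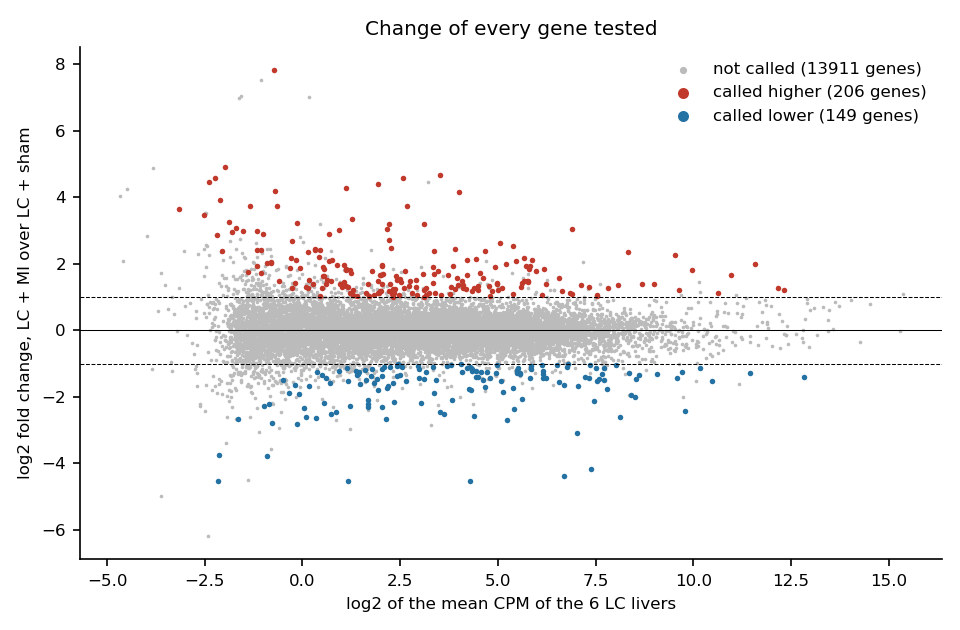
Change of the 14266 genes tested between LC + MI and LC + sham livers (y axis, log2 fold change) against the log2 of their mean CPM over the 6 livers (x axis), with each point a gene and dashed lines at a log2 fold change of 1 and -1. The 206 genes called higher and the 149 called lower span low to high levels, and most genes lie between the dashed lines.

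Among the largest rises were genes of growth arrest, lipid handling and small-molecule metabolism. Cdkn1a (ENSMUSG00000023067), the gene of the growth arrest protein p21, had 15.3, 22.3 and 29.1 CPM in LC + MI livers, against 1.22, 0.703 and 0.71 CPM in LC + sham livers. Every LC + MI liver was more than 10-fold above every LC + sham liver (log2 fold change 4.65 ± 0.52 SE, edgeR adjusted p = 0.00121). Sult1e1 (ENSMUSG00000029272), the estrogen sulfotransferase, had 0.801, 9.65 and 11.4 CPM in LC + MI livers, against 0.0718, 0.296 and 0.672 CPM in LC + sham livers. The groups did not overlap, but replicate 1 of LC + MI was close to the highest sham liver (log2 fold change 4.4 ± 0.81 SE, edgeR adjusted p = 0.012). E030018B13Rik (ENSMUSG00000095061), whose role is not given in the sources used here, had 7.91, 43 and 39.8 CPM in LC + MI livers, against 1.15, 1.89 and 2.02 CPM in LC + sham livers. Replicate 1 was again the lowest LC + MI liver (log2 fold change 4.17 ± 0.55 SE, edgeR adjusted p = 0.00223). Ly6d (ENSMUSG00000034634), a membrane-anchored protein of the Ly6 family, had 4.16, 25 and 6.37 CPM in LC + MI livers, against 0.826, 0.888 and 0.971 CPM in LC + sham livers. The rise was largest in replicate 2 (log2 fold change 3.72 ± 0.62 SE, edgeR adjusted p = 0.00759). Psat1 (ENSMUSG00000024640), an aminotransferase of serine synthesis, had 2.6, 7.88 and 2.73 CPM in LC + MI livers, against 0.646, 0.222 and 0.411 CPM in LC + sham livers, and replicate 2 was again the highest (log2 fold change 3.35 ± 0.49 SE, edgeR adjusted p = 0.00386). Hr (ENSMUSG00000022096), which encodes the corepressor Hairless, had 1.9, 4.22 and 4.08 CPM in LC + MI livers, against 0.754, 0.111 and 0.374 CPM in LC + sham livers (log2 fold change 3.03 ± 0.55 SE, edgeR adjusted p = 0.012). The membrane protein gene Igdcc4 (ENSMUSG00000032816) had 3.96, 4.18 and 4.12 CPM in LC + MI livers, against 0.251, 0.222 and 0.149 CPM in LC + sham livers. The phosphate transporter gene Slc34a2 (ENSMUSG00000029188) had 1.5, 1.97 and 1.49 CPM in LC + MI livers, against 0.179, 0.148 and 0.187 CPM in LC + sham livers. These 8 calls held without each liver.

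Some of the largest rises rested on few reads or on single livers. Gm45236 (ENSMUSG00000109357) had 48, 20 and 11 reads in LC + MI livers and 0 in each LC + sham liver, which is at least 29.2-fold higher when the sham group is set at 3 counts over its 3 livers. Ptges, which makes prostaglandin E2, had 2.76, 14 and 8.41 CPM in LC + MI livers, against 0.0359, 0.555 and 2.17 CPM in LC + sham livers. The fat droplet gene Cidea had 0.15, 0.643 and 2.73 CPM in LC + MI livers, against 0.0359, 0.037 and 0.112 CPM in LC + sham livers, with most of its signal in replicate 3. Gm45050 had 0.551, 1.49 and 1.52 CPM in LC + MI livers, against 0.0359, 0.185 and 0.0374 CPM in LC + sham livers. Gm45236 lost its call whichever liver was left out (edgeR adjusted p of up to 0.108), Ptges without MI 2, MI 3 or sham 2 (up to 0.11) and Cidea whichever liver but MI 1 was left out (up to 0.211). Gm45050 lost its call without MI 2, MI 3, sham 1 or sham 3 (edgeR adjusted p of up to 0.0874).

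The largest falls included genes of steroid, nucleoside and amine metabolism. Inmt (ENSMUSG00000003477), an N-methyltransferase of indoles and other amines, had 62.8, 88.5 and 84 CPM in LC + MI livers, against 393, 532 and 502 CPM in LC + sham livers. All 3 LC + MI livers were at about the same low level (log2 fold change -2.6 ± 0.32 SE, edgeR adjusted p = 0.00143). Pdgfrl (ENSMUSG00000031595), a gene similar to the ligand-binding part of the platelet-derived growth factor receptors, had 0.351, 0.0804 and 0.138 CPM in LC + MI livers, against 4.2, 1.92 and 6.65 CPM in LC + sham livers (log2 fold change -4.53 ± 0.70 SE, edgeR adjusted p = 0.00547). Upp2 (ENSMUSG00000026839), the liver uridine phosphorylase, had 30.5, 6.67 and 15.7 CPM in LC + MI livers, against 246, 444 and 250.5 CPM in LC + sham livers (log2 fold change -4.16, edgeR adjusted p = 0.00121). Serpina6 (ENSMUSG00000060807), the corticosteroid-binding globulin of plasma, had 48.9, 18.5 and 16.2 CPM in LC + MI livers, against 247, 257 and 196 CPM in LC + sham livers (log2 fold change -3.07, edgeR adjusted p = 0.00259). For both, replicate 1 of LC + MI was the highest of its group and still below every sham liver. Naaladl2 (ENSMUSG00000102758) had 0.401, 0.0804 and 0.554 CPM in LC + MI livers, against 2.44, 1.92 and 2.17 CPM in LC + sham livers. RP24-280K5 had 0.801, 0.482 and 0.242 CPM in LC + MI livers, against 3.48, 2.11 and 2.88 CPM in LC + sham livers. Hspa1b (ENSMUSG00000090877), an inducible cytosolic Hsp70, had 3.81, 8.32 and 5.64 CPM in LC + MI livers, against 15, 57.8 and 34.3 CPM in LC + sham livers (log2 fold change -2.58 ± 0.43 SE, edgeR adjusted p = 0.00759). Its near-identical neighbour Hspa1a had 0.952, 1.89 and 0.83 CPM in LC + MI livers, against 1.79, 7.0 and 6.8 CPM in LC + sham livers (log2 fold change -2.08, edgeR adjusted p = 0.038), and the reads of the pair may have been divided between them by the counting. Apart from Hspa1a, the calls of these genes held without each liver.

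Other large falls were less even between livers. Tff3, a trefoil peptide of mucosal epithelia, had 1.5, 2.49 and 0.865 CPM in LC + MI livers, against 102, 6.33 and 3.88 CPM in LC + sham livers, and its fall was mostly the level of LC + sham replicate 1. Hsd17b6, a hydroxysteroid dehydrogenase, had 14.1, 9.93 and 6.33 CPM in LC + MI livers, against 130.00, 27 and 39.1 CPM in LC + sham livers. Nrep had 5.46, 2.57 and 3.11 CPM in LC + MI livers, against 7.18, 40.3 and 15.2 CPM in LC + sham livers, with the highest level in LC + sham replicate 2. Ntrk2, the receptor TrkB, had 0, 0.161 and 0.242 CPM in LC + MI livers, against 1.51, 0.703 and 0.897 CPM in LC + sham livers. Blnk, an adaptor of B cell receptor signaling, had 0.25, 0.281 and 0.346 CPM in LC + MI livers, against 0.861, 3.37 and 1.27 CPM in LC + sham livers. Mmd2 had 1.9, 1.05 and 0.727 CPM in LC + MI livers, against 14.4, 5.59 and 2.8 CPM in LC + sham livers. Gm37736 had 0.25, 0.241 and 0.173 CPM in LC + MI livers, against 1.94, 0.777 and 2.02 CPM in LC + sham livers. Hspa1a lost its call whichever liver but sham 1 was left out (edgeR adjusted p of up to 0.144), Tff3 without MI 1, MI 2, MI 3 or sham 1 (up to 0.117) and Hsd17b6 without MI 2 or MI 3 (up to 0.0864). Nrep and Blnk lost their calls without MI 2, MI 3 or sham 2 (edgeR adjusted p of up to 0.0932 and 0.08), Ntrk2 whichever liver was left out (up to 0.117) and Mmd2 without MI 2, MI 3, sham 1 or sham 2 (up to 0.116). Gm37736 lost its call without MI 2, MI 3 or sham 3 (edgeR adjusted p of up to 0.0916).

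**Figure D2:**
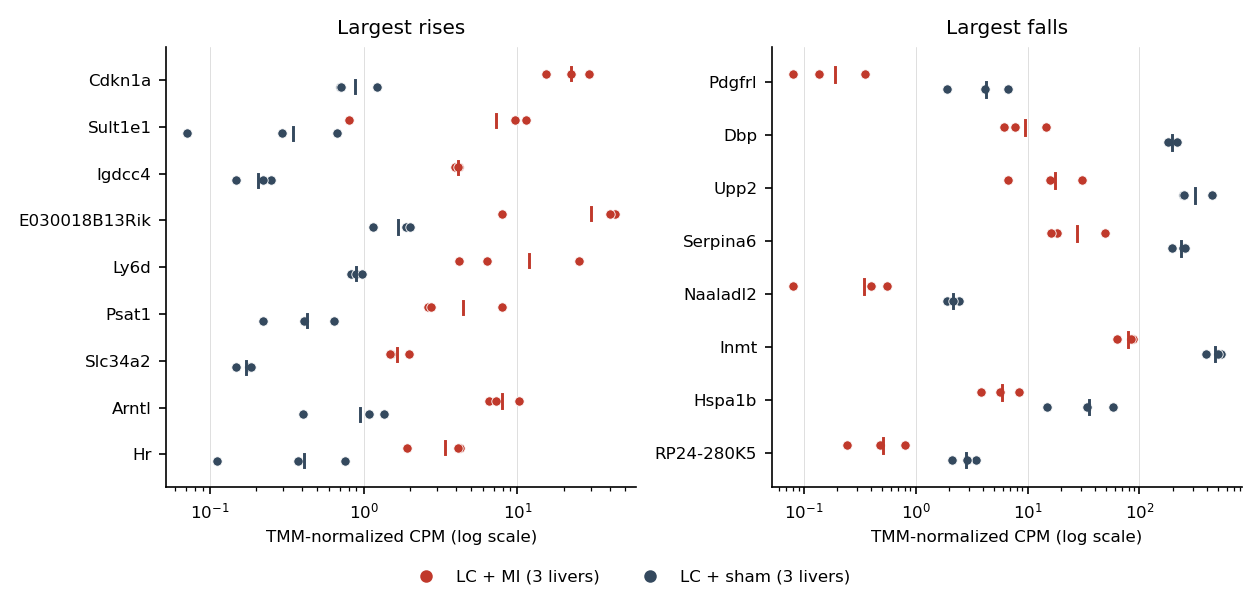
CPM per liver on a log axis for the genes with the largest rises (left) and the largest falls (right) that held without each liver, with LC + MI livers above LC + sham livers, points for livers and ticks for group means. Genes were chosen as having no overlap between the groups, and replicate 1 of Sult1e1 comes closest to the other group.

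Several genes of the circadian clock changed. In the clock, BMAL1 (Arntl) and CLOCK switch on their own repressors (the Per and Cry genes) through E-box sequences, and the nuclear receptors REV-ERB alpha and beta (Nr1d1 and Nr1d2) repress Arntl through elements that ROR receptors activate. No source used here gives the time of day at which livers were taken, so the operation and the hour cannot be told apart. Arntl (ENSMUSG00000055116) had 10.2, 6.51 and 7.27 CPM in LC + MI livers, against 1.36, 0.407 and 1.08 CPM in LC + sham livers. All LC + MI livers were at least 4-fold above the highest sham liver (log2 fold change 3.06 ± 0.35 SE, edgeR adjusted p = 0.00121). Of the 4 activators tested it was the only one to pass, and 1 (without each but sham 1) to 2 (without sham 1) were higher with 1 liver left out. Its partner Clock had 23.8, 19.9 and 20.1 CPM in LC + MI livers, against 17.8, 12.8 and 12.7 CPM in LC + sham livers (log2 fold change 0.56, edgeR adjusted p = 0.0841). Rora had overlapping groups. The window around a start site of Arntl (GRCm38.p6, chr7:113207261-113207560, plus strand) is shown because it carries, in capitals, 1 match to TAGGTCA, a half-site bound by REV-ERB and ROR receptors, which 2.61% of 32851 RefSeq promoters of the same 300 base window hold on either strand.
Arntl: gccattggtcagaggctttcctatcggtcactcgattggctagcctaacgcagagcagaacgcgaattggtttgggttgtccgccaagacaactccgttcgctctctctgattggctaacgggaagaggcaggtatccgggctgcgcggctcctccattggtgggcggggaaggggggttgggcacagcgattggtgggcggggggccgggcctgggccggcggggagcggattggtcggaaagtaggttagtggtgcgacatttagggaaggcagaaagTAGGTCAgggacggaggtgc

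Of 14 clock repressors tested, 5 were lower and 1 was higher at an adjusted p under 0.05, with a median log2 fold change of -0.38, beside a median of 0.01 over all genes tested. Ciart (ENSMUSG00000038550), a repressor of BMAL1 and CLOCK, had 3.41, 3.38 and 3.87 CPM in LC + MI livers, against 12.2, 21.5 and 24.8 CPM in LC + sham livers (log2 fold change -2.45 ± 0.28 SE, edgeR adjusted p = 0.00121). Nr1d1 (ENSMUSG00000020889) had 24.9, 8.81 and 8.06 CPM in LC + MI livers, against 92.8, 56.4 and 62.8 CPM in LC + sham livers (log2 fold change -2.35 ± 0.37 SE, edgeR adjusted p = 0.00603). Nr1d2 (ENSMUSG00000021775) had 32, 26.8 and 22.6 CPM in LC + MI livers, against 72.6, 68.9 and 61.8 CPM in LC + sham livers (log2 fold change -1.32 ± 0.16 SE, edgeR adjusted p = 0.00124). In each of the 3, the highest LC + MI liver was below the lowest sham liver. Per3, a period gene, had 14.6, 15.8 and 16.3 CPM in LC + MI livers, against 32.3, 38.2 and 41.8 CPM in LC + sham livers (log2 fold change -1.26 ± 0.14 SE, edgeR adjusted p = 0.00121). These falls held without each liver. Bhlhe41, the repressor DEC2, had 1.65, 1.61 and 1.35 CPM in LC + MI livers, against 2.87, 3.44 and 5.04 CPM in LC + sham livers (log2 fold change -1.3, edgeR adjusted p = 0.017). Cry1 moved the other way, with 5.21, 8.64 and 11.2 CPM in LC + MI livers, against 2.73, 3.48 and 2.43 CPM in LC + sham livers (log2 fold change 1.54, edgeR adjusted p = 0.0305). Bhlhe41 lost its call without MI 2, MI 3 or sham 3 (edgeR adjusted p of up to 0.0726) and Cry1 whichever liver but MI 1 was left out (up to 0.119). Per1, Per2, Bhlhe40, Cry2, Csnk1d, Csnk1e and Fbxl21 did not pass.

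Of the 15 clock output genes tested 6 were lower and 0 higher, with a median log2 fold change of -0.95. Dbp (ENSMUSG00000059824), a bZIP factor that relays the clock to metabolic genes, had 14.5, 7.76 and 6.19 CPM in LC + MI livers, against 192, 180.02 and 215 CPM in LC + sham livers, a separation of over 10-fold between the closest livers (log2 fold change -4.37 ± 0.27 SE, edgeR adjusted p = 4.6e-06). Noct (ENSMUSG00000023087), a phosphatase of nicotinamide cofactors named Nocturnin, had 9.77, 22.1 and 24.6 CPM in LC + MI livers, against 54.2, 92.9 and 88.3 CPM in LC + sham livers (log2 fold change -2.06 ± 0.29 SE, edgeR adjusted p = 0.00301). Tef (ENSMUSG00000022389), the relative of Dbp, had 145, 109 and 113 CPM in LC + MI livers, against 253, 209 and 248 CPM in LC + sham livers (log2 fold change -0.95 ± 0.15 SE, edgeR adjusted p = 0.00603). Wee1, a kinase that delays mitosis, had 0.952, 1.57 and 1.49 CPM in LC + MI livers, against 2.33, 5.55 and 4.63 CPM in LC + sham livers (log2 fold change -1.63 ± 0.30 SE, edgeR adjusted p = 0.0125). The adjusted p of these 4 stayed under 0.05 without each liver, and the fall of Tef was under 2-fold. Por, the reductase that supplies electrons to cytochromes P450, had 157, 179.7 and 225 CPM in LC + MI livers, against 297, 399.8 and 345 CPM in LC + sham livers (log2 fold change -0.89, edgeR adjusted p = 0.0277). Usp2, a ubiquitin protease, had 8.77, 11.4 and 17 CPM in LC + MI livers, against 17.8, 34.7 and 45.5 CPM in LC + sham livers (log2 fold change -1.39, edgeR adjusted p = 0.045). Por lost its call without MI 2, sham 2 or sham 3 (edgeR adjusted p of up to 0.1) and Usp2 whichever liver but sham 1 was left out (up to 0.155). With 1 liver left out, 4 to 6 output genes were lower. Rgs16 and Lpin1 had sham livers far apart (for Rgs16, 0.852, 4.82 and 1.38 CPM in LC + MI livers, against 0.323, 42.9 and 7.99 CPM in LC + sham livers) and did not pass.

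Promoters of the clock genes were searched for the E-box CACGTG (the same on both strands), for the D-box TTATGTAA bound by DBP and TEF and for TAGGTCA (both on either strand). Of 33 clock genes tested, 27 had a RefSeq promoter. The E-box was in 6 of them (7.15% of all promoters hold it): Bhlhe41, Ciart, Cry1, Per1, Tef and Tspan4. Of these, Bhlhe41, Ciart and Tef were lower and Cry1 was higher, while Per1 and Tspan4 did not pass. The D-box was in 1, Per3 (0.938% of all promoters), and TAGGTCA in 2, Arntl and Nfil3. Genes were counted where any of their promoters held the motif, whereas the shares of all promoters count each promoter. A match is a description of the letters in the window. The windows of Ciart (GRCm38.p6, chr3:95882179-95882478, minus strand), with 3 E-boxes, and Tef (GRCm38.p6, chr15:81802423-81802722, plus strand), with 1, are shown with the E-boxes in capitals because both genes fell and carry the element that BMAL1 and CLOCK bind.
Ciart: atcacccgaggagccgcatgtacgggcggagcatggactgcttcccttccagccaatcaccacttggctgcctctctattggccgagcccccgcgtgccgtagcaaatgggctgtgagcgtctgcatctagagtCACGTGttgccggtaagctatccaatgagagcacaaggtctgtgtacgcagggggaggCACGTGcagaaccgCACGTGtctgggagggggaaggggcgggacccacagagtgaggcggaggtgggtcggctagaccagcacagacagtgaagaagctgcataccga
Tef: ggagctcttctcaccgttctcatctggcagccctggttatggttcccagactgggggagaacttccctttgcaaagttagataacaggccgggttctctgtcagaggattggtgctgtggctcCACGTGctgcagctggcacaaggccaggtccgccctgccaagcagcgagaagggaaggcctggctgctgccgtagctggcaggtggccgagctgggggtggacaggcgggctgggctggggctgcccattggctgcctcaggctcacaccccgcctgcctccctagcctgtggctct

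**Figure D3:**
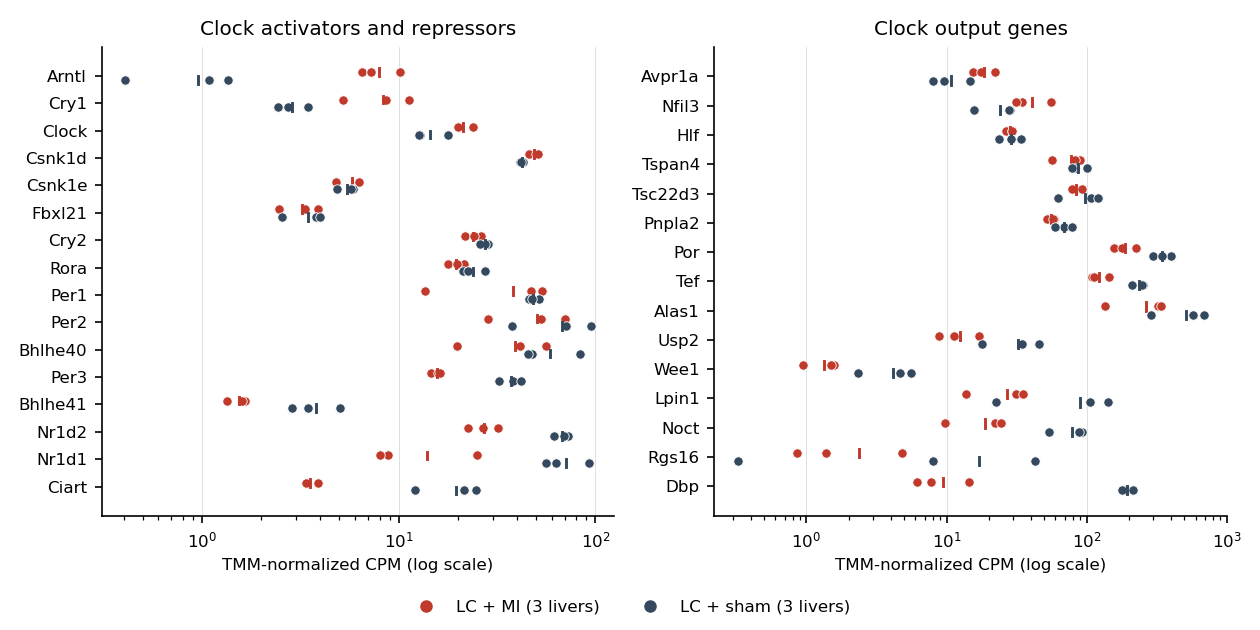
CPM per liver on a log axis for 16 of the 18 clock activators and repressors (left) and the 15 clock output genes (right), ordered by their log2 fold change, with LC + MI livers above LC + sham livers, points for livers and ticks for group means. Arntl and Cry1 lie at the top with LC + MI livers to the right, and Ciart, Nr1d1 and Dbp at the bottom with LC + MI livers to the left.

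Part of the ER secretory pathway rose. Chaperones and disulfide isomerases fold proteins inside the ER, translocation subunits bring them in, and ER-associated degradation removes what fails to fold. Of 20 chaperone and folding genes tested, 7 were higher and 0 lower, with a median log2 fold change of 0.79. Of 33 genes for translocation, degradation and export, 10 were higher and 0 lower, with a median of 0.50. Derl3 (ENSMUSG00000009092), a membrane protein of ER-associated degradation, had 58, 76.2 and 79.7 CPM in LC + MI livers, against 7.57, 9.22 and 20.2 CPM in LC + sham livers. It rose most of the 53 genes (log2 fold change 2.53 ± 0.34 SE, edgeR adjusted p = 0.00246). Sdf2l1 (ENSMUSG00000022769), a cofactor of the ER Hsp70 system, had 70.5, 129 and 139.6 CPM in LC + MI livers, against 21.4, 38.4 and 35.5 CPM in LC + sham livers (log2 fold change 1.83 ± 0.26 SE, edgeR adjusted p = 0.00334). Both calls held without each liver. Calr, which encodes the calcium-binding chaperone calreticulin, had 1453, 1746 and 2089.7 CPM in LC + MI livers, against 920.2, 990.5 and 1019 CPM in LC + sham livers (log2 fold change 0.85, edgeR adjusted p = 0.0194). The disulfide isomerase gene Pdia3 had 725, 818 and 869.7 CPM in LC + MI livers, against 407, 456 and 486 CPM in LC + sham livers (log2 fold change 0.84, edgeR adjusted p = 0.0185). P4hb, which encodes another isomerase, had 1917, 2467 and 2498 CPM in LC + MI livers, against 1051, 1394 and 1448 CPM in LC + sham livers (log2 fold change 0.82, edgeR adjusted p = 0.0201). For these 3 the groups did not overlap, and replicate 1 was the lowest LC + MI liver. Pdia4 (0.94), Manf (1.29) and Fkbp14 (0.88) also rose, as log2 fold changes, and for Pdia4 and Manf the groups overlapped. Pdia4 and Manf lost their calls without MI 2, MI 3, sham 1 or sham 3 (edgeR adjusted p of up to 0.145 and 0.136) and Fkbp14 without MI 3, sham 2 or sham 3 (up to 0.126).

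Among the translocation genes, Sec61a1, the pore subunit, had 212, 318 and 345 CPM in LC + MI livers, against 155, 173 and 151 CPM in LC + sham livers (log2 fold change 0.87, edgeR adjusted p = 0.0193). Ssr1, of the translocon-associated complex, had 129, 169.8 and 178 CPM in LC + MI livers, against 84.3, 104 and 84.9 CPM in LC + sham livers (log2 fold change 0.80, edgeR adjusted p = 0.0153). Ssr3, Sec61g, Spcs2 of the signal peptidase, Selenok, Edem2, Kdelr2 and Mcfd2 rose with log2 fold changes of 1.04, 0.79, 0.77, 0.74, 0.71, 0.72 and 0.80. These increases were under 2-fold except that of Ssr3. The counts of both lists moved with single livers. Of the chaperone genes, 1 (without MI 3) to 15 (without MI 1) were higher with 1 liver left out. Of the translocation, degradation and export genes, 1 (without MI 2, MI 3 or sham 3) to 19 (without MI 1) were higher. Calr and Edem2 lost their calls without MI 2, MI 3, sham 2 or sham 3 (edgeR adjusted p of up to 0.0842 and 0.0681), Pdia3 and P4hb without MI 2, MI 3 or sham 2 (up to 0.0726 and 0.0825) and Sec61a1 and Ssr1 without MI 2, MI 3 or sham 3 (up to 0.0825 and 0.0681). Ssr3 and Sec61g lost their calls without MI 2, MI 3, sham 1 or sham 3 (edgeR adjusted p of up to 0.0825 and 0.0716) and Spcs2, Selenok, Kdelr2 and Mcfd2 whichever liver but MI 1 was left out (up to 0.144, 0.133, 0.167 and 0.16).

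Of 15 sensors and transcription factors of the unfolded protein response, 0 passed in edgeR and 0 in DESeq2, and 4 were higher and 0 lower at an unadjusted p under 0.05. Of these 15, 0 (without each but MI 1) to 2 (without MI 1) were higher with 1 liver left out. Xbp1 had 177, 189.6 and 175 CPM in LC + MI livers, against 244, 224 and 192 CPM in LC + sham livers (log2 fold change -0.28, edgeR adjusted p = 0.419), the LC + MI livers being slightly below. Atf4 had 109.7, 151 and 168 CPM in LC + MI livers, against 124, 94.4 and 97.9 CPM in LC + sham livers (log2 fold change 0.44, edgeR adjusted p = 0.171). Creb3l3 had 383, 295 and 297 CPM in LC + MI livers, against 229, 250.1 and 264 CPM in LC + sham livers (log2 fold change 0.39, edgeR adjusted p = 0.176).

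The ER stress element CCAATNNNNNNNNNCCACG, to which ATF6 and NF-Y bind, was searched on both strands. It was in a promoter of 9 of 41 genes of the 2 ER lists that had a RefSeq promoter, against 0.119% of all promoters. The count is per gene and that share per promoter, over 32851 promoters of 27025 gene symbols. Of the 9, Calr and Derl3 rose, and Canx, Creld2, Dnajc3, Hsp90b1, Hspa5, Pdia6 and Syvn1 did not pass. The windows of Derl3 (GRCm38.p6, chr10:75893148-75893447, plus strand) and Calr (GRCm38.p6, chr8:84846882-84847181, minus strand) are shown because both genes rose and carry the element, which is in capitals and reads on the opposite strand in both (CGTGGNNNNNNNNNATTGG). It starts 156 and 162 bases before the RefSeq start site, and both windows also hold an E-box that does not overlap it.
Derl3: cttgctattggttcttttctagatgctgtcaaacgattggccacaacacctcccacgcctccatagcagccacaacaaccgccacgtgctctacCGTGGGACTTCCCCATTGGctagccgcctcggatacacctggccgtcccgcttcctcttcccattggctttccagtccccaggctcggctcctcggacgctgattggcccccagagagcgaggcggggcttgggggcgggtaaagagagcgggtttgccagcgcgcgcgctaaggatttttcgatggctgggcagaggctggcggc
Calr: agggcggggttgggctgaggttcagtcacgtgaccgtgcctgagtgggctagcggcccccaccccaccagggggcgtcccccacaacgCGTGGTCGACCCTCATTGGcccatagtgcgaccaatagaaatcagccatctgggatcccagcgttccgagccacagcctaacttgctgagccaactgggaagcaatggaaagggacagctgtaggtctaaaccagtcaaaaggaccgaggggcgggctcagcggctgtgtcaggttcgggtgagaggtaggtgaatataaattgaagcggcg

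Acute-phase genes moved in part. Of 39 tested, 6 were higher and 2 lower, with a median log2 fold change of 0.15. Serpina3n (ENSMUSG00000021091), a serine protease inhibitor of plasma, had 2989, 3111 and 3035 CPM in LC + MI livers, against 1001, 837 and 1017 CPM in LC + sham livers. The LC + MI livers were within a narrow range, about 3-fold above the sham livers (log2 fold change 1.68 ± 0.21 SE, edgeR adjusted p = 0.00151). Its paralog Serpina3m had 254, 465 and 435 CPM in LC + MI livers, against 118, 171 and 164 CPM in LC + sham livers (log2 fold change 1.35 ± 0.22 SE, edgeR adjusted p = 0.00633). Apcs (ENSMUSG00000026542), serum amyloid P, had 847, 712 and 662 CPM in LC + MI livers, against 336, 209.9 and 296 CPM in LC + sham livers (log2 fold change 1.4 ± 0.25 SE, edgeR adjusted p = 0.0114). These 3 held without each liver. Lcn2, the iron-siderophore binding lipocalin, had 4449.9, 5151 and 5027 CPM in LC + MI livers, against 1144, 441 and 2089 CPM in LC + sham livers, the sham livers being far apart (log2 fold change 1.99, edgeR adjusted p = 0.0215). The fibrinogen chain gene Fgb had 7456, 11729.8 and 11389 CPM in LC + MI livers, against 5773, 5687 and 4502 CPM in LC + sham livers (log2 fold change 0.94, edgeR adjusted p = 0.0277). Lrg1 had 3218, 3253 and 2766 CPM in LC + MI livers, against 1740.1, 2165 and 1631 CPM in LC + sham livers (log2 fold change 0.74, edgeR adjusted p = 0.0427). Serpina1e, an alpha-1 antitrypsin gene that may share reads with near-identical copies, had 5633, 3884 and 2482 CPM in LC + MI livers, against 11096, 13348 and 7502 CPM in LC + sham livers (log2 fold change -1.41, edgeR adjusted p = 0.0356). The collectin gene Mbl2 had 97.8, 100.4 and 106 CPM in LC + MI livers, against 232, 206 and 129 CPM in LC + sham livers (log2 fold change -0.90, edgeR adjusted p = 0.0356). Lcn2 lost its call without MI 2, MI 3 or sham 1 (edgeR adjusted p of up to 0.0702), Fgb without MI 2, MI 3, sham 2 or sham 3 (up to 0.107) and Lrg1 whichever liver was left out (up to 0.142). Serpina1e lost its call without MI 2, MI 3, sham 1 or sham 2 (edgeR adjusted p of up to 0.132) and Mbl2 whichever liver but sham 3 was left out (up to 0.116). With 1 liver left out, 3 (without MI 2 or MI 3) to 6 (without MI 1) were higher and 0 (without MI 2, MI 3, sham 1 or sham 2) to 2 (without sham 3) were lower. Haptoglobin (Hp) had 33717, 26492 and 28582 CPM in LC + MI livers, against 18633, 14996 and 18182 CPM in LC + sham livers, without overlap (log2 fold change 0.78, edgeR adjusted p = 0.0519). The classical serum amyloid A genes Saa1 and Saa2, with log2 fold changes of 0.13 and 0.34, did not pass.

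Of 23 signaling genes of the interleukin-6 pathway tested, 2 were lower and 0 higher. Il6ra, the interleukin-6 receptor alpha chain, had 25, 29 and 28.8 CPM in LC + MI livers, against 38.8, 42.9 and 37 CPM in LC + sham livers (log2 fold change -0.52, edgeR adjusted p = 0.0365). Lifr, the leukemia inhibitory factor receptor, had 66.5, 52.4 and 71.4 CPM in LC + MI livers, against 148, 345 and 113 CPM in LC + sham livers (log2 fold change -1.67, edgeR adjusted p = 0.0232). Il6ra lost its call whichever liver was left out (edgeR adjusted p of up to 0.124) and Lifr without MI 2, MI 3 or sham 2 (up to 0.0952). In fits that each left out 1 liver, 0 (without each but sham 1) to 1 (without sham 1) were higher and 0 (without MI 2, MI 3 or sham 2) to 2 (without MI 1 or sham 3) were lower. Stat3 had 118, 114 and 113 CPM in LC + MI livers, against 129, 115 and 84.3 CPM in LC + sham livers (log2 fold change 0.07, edgeR adjusted p = 0.867), with overlapping groups. Of 20 immediate early genes 0 passed in edgeR or DESeq2, and 1 was higher and 2 lower at an unadjusted p under 0.05. Without sham 3, 1 was lower. Of 26 NF-kB and cytokine targets 1 passed (2 were higher without sham 1), the chemokine gene Ccl9 (ENSMUSG00000019122), with 20.8, 14.1 and 19 CPM in LC + MI livers, against 43.4, 46.4 and 42.5 CPM in LC + sham livers (log2 fold change -1.3 ± 0.16 SE, edgeR adjusted p = 0.00151). That fall held without each liver.

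ATF4 controls genes of amino acid supply and stress, including the hormone gene Fgf21. Of 19 targets tested, 4 were higher (Psat1 among them) and 1 lower, and 1 (without MI 2) to 4 (without MI 1 or sham 1) were higher and 0 (without each but MI 1) to 1 (without MI 1) were lower with 1 liver left out. Fgf21 (ENSMUSG00000030827), a hepatokine, had 1.8, 3.42 and 1.63 CPM in LC + MI livers, against 0.754, 0.259 and 0.261 CPM in LC + sham livers. All LC + MI livers were above the sham livers, at low levels (log2 fold change 2.4 ± 0.48 SE, edgeR adjusted p = 0.0185). Atf5, a bZIP factor, had 508, 641 and 655 CPM in LC + MI livers, against 307, 138 and 240.00 CPM in LC + sham livers (log2 fold change 1.4, edgeR adjusted p = 0.0139). Mthfd2, of mitochondrial folate metabolism, had 1.1, 2.77 and 2.18 CPM in LC + MI livers, against 0.79, 1.04 and 0.672 CPM in LC + sham livers (log2 fold change 1.29, edgeR adjusted p = 0.0404). Cth, which makes cysteine, fell with 63.1, 30.1 and 50.6 CPM in LC + MI livers, against 158, 141 and 121 CPM in LC + sham livers (log2 fold change -1.55, edgeR adjusted p = 0.0463). Fgf21 lost its call without MI 2, sham 2 or sham 3 (edgeR adjusted p of up to 0.0726), Atf5 without MI 2 or MI 3 (up to 0.0554) and Mthfd2 and Cth whichever liver but MI 1 was left out (up to 0.155 and 0.158). Of 29 hepatokines and secreted regulators, Inhbe, an activin chain, rose with 107, 98 and 99 CPM in LC + MI livers, against 56.8, 46.6 and 49.4 CPM in LC + sham livers (log2 fold change 0.99, edgeR adjusted p = 0.0346) beside Fgf21. Enho fell with 10.7, 2.77 and 2.94 CPM in LC + MI livers, against 35.4, 20.1 and 13.1 CPM in LC + sham livers (log2 fold change -2.09, edgeR adjusted p = 0.0482). Inhbe lost its call whichever liver was left out (edgeR adjusted p of up to 0.115) and Enho whichever liver but MI 1 was left out (up to 0.168). With these, 2 were higher and 1 lower, and 0 (without MI 2, sham 2 or sham 3) to 2 (without sham 1) were higher and 0 (without each but MI 1) to 1 (without MI 1) were lower in fits that each left out 1 liver.

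Few other genes of the pathway of Cdkn1a passed. Of 19 p53 and growth-arrest targets tested, Cdkn1a alone was higher, and Gadd45a was lower, with 4.26, 3.62 and 3.01 CPM in LC + MI livers, against 7.75, 7.7 and 6.72 CPM in LC + sham livers (log2 fold change -1.03, edgeR adjusted p = 0.035). Gadd45a lost its call whichever liver but MI 1 was left out (edgeR adjusted p of up to 0.137). Of 27 cell cycle genes 1 was higher, Ccnf, which encodes the cyclin F subunit of a ubiquitin ligase. It had 20.5, 21.4 and 17.7 CPM in LC + MI livers, against 6.39, 8.96 and 8.74 CPM in LC + sham livers (log2 fold change 1.31 ± 0.17 SE, edgeR adjusted p = 0.00233) and held without each liver. Pcna had 8.92, 14.4 and 12.7 CPM in LC + MI livers, against 9.98, 15 and 12.6 CPM in LC + sham livers (log2 fold change -0.06, edgeR adjusted p = 0.906).

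Corticosteroid receptors and their targets moved in both directions. Nr3c2, the MR gene, had 3.56, 2.13 and 1.9 CPM in LC + MI livers, against 5.6, 6.7 and 4.71 CPM in LC + sham livers (log2 fold change -1.18 ± 0.26 SE, edgeR adjusted p = 0.0238). Nr3c1, the glucocorticoid receptor gene, had 16, 20.4 and 20 CPM in LC + MI livers, against 32.2, 28.8 and 25.1 CPM in LC + sham livers (log2 fold change -0.61 ± 0.14 SE, edgeR adjusted p = 0.0277). Every LC + MI liver was below every sham liver for both. Of 25 genes listed as glucocorticoid targets or carriers, Cdkn1a, Sult1e1, Lcn2 and Fkbp5 were higher and Serpina6, Nr3c2 and Nr3c1 lower. Fkbp5, a cochaperone that glucocorticoids induce, had 56.6, 96.3 and 89.1 CPM in LC + MI livers, against 18.8, 38.9 and 28.1 CPM in LC + sham livers (log2 fold change 1.5, edgeR adjusted p = 0.0369). Nr3c2 lost its call without MI 2, MI 3 or sham 2 (edgeR adjusted p of up to 0.105), Nr3c1 without MI 2, MI 3, sham 1 or sham 2 (up to 0.0781) and Fkbp5 whichever liver but MI 1 was left out (up to 0.119). Of 38 nuclear receptors, 2 others rose. Nr1h4, the bile acid receptor FXR, had 239, 199 and 211 CPM in LC + MI livers, against 120.2, 133 and 114 CPM in LC + sham livers (log2 fold change 0.82, edgeR adjusted p = 0.0181). Nr1i3, the xenobiotic receptor CAR, had 789, 547 and 728 CPM in LC + MI livers, against 335, 356 and 423 CPM in LC + sham livers (log2 fold change 0.89, edgeR adjusted p = 0.0251). Nr1h4 lost its call without MI 3 or sham 3 (edgeR adjusted p of up to 0.0621) and Nr1i3 without MI 3, sham 1 or sham 2 (up to 0.0876). Of the nuclear receptors, 0 (without MI 3) to 2 (without MI 1 or MI 2) were higher and 2 (without MI 2, MI 3 or sham 2) to 5 (without MI 1) were lower with 1 liver left out. Of the glucocorticoid genes, 2 (without MI 2, MI 3 or sham 1) to 4 (without MI 1) were higher and 1 (without MI 2, MI 3 or sham 2) to 3 (without MI 1 or sham 3) were lower. In the NCoR and HDAC3 corepressor complex, Tbl1x, a subunit, fell with 14.6, 13.3 and 12 CPM in LC + MI livers, against 20.5, 21.2 and 20.7 CPM in LC + sham livers (log2 fold change -0.65, edgeR adjusted p = 0.0287). Ncor1 had 51.5, 39.7 and 41.3 CPM in LC + MI livers, against 41, 37.8 and 36 CPM in LC + sham livers (log2 fold change 0.21, edgeR adjusted p = 0.437). Hdac3 had 54.9, 42.3 and 42.2 CPM in LC + MI livers, against 51.1, 40 and 45.4 CPM in LC + sham livers (log2 fold change 0.03, edgeR adjusted p = 0.936). Tbl1x lost its call without MI 2, MI 3, sham 2 or sham 3 (edgeR adjusted p of up to 0.118).

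Among 26 genes listed for fatty acid synthesis and its regulator SREBP1c, 2 were higher, 2 lower and 22 did not pass. The 2 higher, Insig2 and Tkfc, are not enzymes of fatty acid synthesis. Srebf1 (ENSMUSG00000020538), whose product SREBP1c drives lipogenic genes, had 111, 88 and 87 CPM in LC + MI livers, against 282, 230.2 and 309 CPM in LC + sham livers (log2 fold change -1.52, edgeR adjusted p = 0.00301). Fads1, a fatty acid desaturase, had 141, 106 and 99 CPM in LC + MI livers, against 243, 329 and 294 CPM in LC + sham livers (log2 fold change -1.32 ± 0.22 SE, edgeR adjusted p = 0.00711). Insig2 (ENSMUSG00000003721), whose product retains SREBP proteins in the ER, had 138, 157 and 133 CPM in LC + MI livers, against 55.6, 39.2 and 49.4 CPM in LC + sham livers (log2 fold change 1.57 ± 0.21 SE, edgeR adjusted p = 0.00233). Tkfc (ENSMUSG00000034371), a fructose-metabolizing kinase, had 587, 1598 and 1513 CPM in LC + MI livers, against 142, 299 and 322 CPM in LC + sham livers, with replicate 1 the lowest LC + MI liver (log2 fold change 2.28 ± 0.38 SE, edgeR adjusted p = 0.00711). These 4 held without each liver. The median log2 fold change of the 26 was -0.04. Of 25 cholesterol synthesis and uptake genes 2 were higher. Mvd, a mevalonate pathway decarboxylase, had 62.3, 72.4 and 78.4 CPM in LC + MI livers, against 20.9, 30.9 and 27.9 CPM in LC + sham livers (log2 fold change 1.42, edgeR adjusted p = 0.0318). Srebf2, the regulator of the pathway, had 54.4, 57.5 and 58.7 CPM in LC + MI livers, against 35.9, 30.5 and 37.9 CPM in LC + sham livers (log2 fold change 0.71, edgeR adjusted p = 0.0398). Mvd and Srebf2 lost their calls whichever liver but MI 1 was left out (edgeR adjusted p of up to 0.104 and 0.14). In the synthesis list, 2 (without each but MI 1) to 3 (without MI 1) were higher and 2 (without MI 2, MI 3, sham 2 or sham 3) to 5 (without MI 1) were lower in fits that each left out 1 liver.

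Of 21 lipid droplet and lipolysis genes 6 were higher and 0 lower. Cidec (ENSMUSG00000030278), which fuses lipid droplets, had 5.46, 27.8 and 13.5 CPM in LC + MI livers, against 0.826, 1.3 and 3.03 CPM in LC + sham livers (log2 fold change 3.19 ± 0.58 SE, edgeR adjusted p = 0.012). Plin4, a droplet coat protein, had 89.9, 78.8 and 116 CPM in LC + MI livers, against 31.4, 9.29 and 24.7 CPM in LC + sham livers (log2 fold change 2.12, edgeR adjusted p = 0.0187). The fatty acid transporter gene Cd36 had 21.9, 46.6 and 48.1 CPM in LC + MI livers, against 13.5, 15 and 18.2 CPM in LC + sham livers (log2 fold change 1.32, edgeR adjusted p = 0.0251). Mgll, a monoacylglycerol lipase, had 131, 242 and 218 CPM in LC + MI livers, against 76.8, 113 and 109 CPM in LC + sham livers (log2 fold change 0.99, edgeR adjusted p = 0.0322). Hilpda, a droplet protein induced by hypoxia and fatty acids, had 2.76, 3.34 and 3.15 CPM in LC + MI livers, against 1.26, 1.22 and 1.2 CPM in LC + sham livers (log2 fold change 1.33, edgeR adjusted p = 0.0394). Cidea is the sixth, and 1 (without MI 3, sham 2 or sham 3) to 6 (without MI 1) were higher and 0 (without each but sham 1) to 1 (without sham 1) were lower with 1 liver left out. Cidec lost its call without sham 2 (edgeR adjusted p of up to 0.0525), Plin4 without MI 3 or sham 3 (up to 0.0681) and Cd36, Mgll and Hilpda whichever liver but MI 1 was left out (up to 0.099, 0.124 and 0.118). Of the 18 hypoxia targets tested 0 passed in edgeR, in DESeq2 or in any fit that left out 1 LC liver, and 1 was higher and 2 lower at an unadjusted p under 0.05.

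Of 37 genes of fatty acid oxidation and ketogenesis 5 were higher and 1 lower. PPAR-alpha, the fasting-activated receptor, induces the omega-hydroxylases Cyp4a10 and Cyp4a14. Cyp4a10 had 406, 571 and 649 CPM in LC + MI livers, against 99.6, 91.3 and 128 CPM in LC + sham livers, the groups being about 3-fold apart at their closest (log2 fold change 2.35 ± 0.45 SE, edgeR adjusted p = 0.0143). Cyp4a14 had 95.9, 191 and 347 CPM in LC + MI livers, against 47.4, 9.74 and 20.4 CPM in LC + sham livers (log2 fold change 3.03, edgeR adjusted p = 0.0327). Cyp4a32 had 29.2, 16 and 23.6 CPM in LC + MI livers, against 7.97, 6.29 and 3.62 CPM in LC + sham livers (log2 fold change 1.94, edgeR adjusted p = 0.0207). These P450 genes are close paralogs whose reads may have been divided. Fgf21 is also among those higher. The fatty acid binding protein gene Fabp1 fell, with 2484, 1379.8 and 1072 CPM in LC + MI livers, against 3176, 4509 and 4243 CPM in LC + sham livers (log2 fold change -1.27, edgeR adjusted p = 0.0305). Cyp4a10 lost its call without MI 3 or sham 2 (edgeR adjusted p of up to 0.0589), Cyp4a14 and Fabp1 without MI 2, MI 3, sham 2 or sham 3 (up to 0.116 and 0.117) and Cyp4a32 without MI 3, sham 2 or sham 3 (up to 0.0747). In fits that each left out 1 liver, 0 (without sham 2) to 6 (without MI 1) were higher and 0 (without MI 2, MI 3 or sham 3) to 2 (without MI 1) were lower. Apoa4 was the 1 of 26 apolipoprotein genes that passed, with 1777, 1931 and 939.9 CPM in LC + MI livers, against 637, 171 and 514 CPM in LC + sham livers (log2 fold change 1.81, edgeR adjusted p = 0.0337). Apoa4 lost its call without MI 1, MI 2, sham 2 or sham 3 (edgeR adjusted p of up to 0.112).

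Part of nitrogen metabolism fell. Hepatocytes take up amino acids, break down their carbon skeletons and convert the nitrogen to urea. Of 45 amino acid and pyrimidine breakdown genes tested, 11 were lower and 0 higher, with a median log2 fold change of -0.53, and 34 of them did not pass. Sds (ENSMUSG00000029597), serine dehydratase, had 113, 102 and 117 CPM in LC + MI livers, against 407, 244 and 276 CPM in LC + sham livers (log2 fold change -1.48 ± 0.27 SE, edgeR adjusted p = 0.012). Got1, cytosolic aspartate aminotransferase, had 29.6, 44.6 and 40.7 CPM in LC + MI livers, against 121, 135 and 56.3 CPM in LC + sham livers (log2 fold change -1.44, edgeR adjusted p = 0.0201). The tyrosine pathway genes Hpd and Hgd had log2 fold changes of -0.76 and -1.03, the tryptophan pathway gene Afmid -1.43, and the pyrimidine gene Dpyd -0.84. Sardh, Agxt and Aldh4a1, of sarcosine, glyoxylate and proline breakdown, had -0.85, -0.94 and -0.83, and Upp2 is also in the list. The call of Upp2 held without each liver. Sds lost its call without MI 2 (edgeR adjusted p of up to 0.0595), Got1 without MI 2, MI 3 or sham 2 (up to 0.0721) and Hpd, Afmid, Dpyd, Sardh and Agxt whichever liver but MI 1 was left out (up to 0.101, 0.124, 0.12, 0.15 and 0.154). Hgd lost its call without MI 2, MI 3, sham 2 or sham 3 (edgeR adjusted p of up to 0.117) and Aldh4a1 whichever liver was left out (up to 0.156). Of the list, 0 (without each but MI 1) to 2 (without MI 1) were higher and 2 (without MI 2) to 15 (without MI 1) were lower with 1 liver left out.

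Of 10 urea cycle genes tested 4 were lower and 0 higher. Ass1 (ENSMUSG00000076441), argininosuccinate synthase, had 359.95, 571 and 558 CPM in LC + MI livers, against 1098, 1328 and 1141 CPM in LC + sham livers (log2 fold change -1.26 ± 0.24 SE, edgeR adjusted p = 0.014), and the call held without each liver. Cps1, the entry enzyme of the cycle, had 223, 333 and 377 CPM in LC + MI livers, against 644, 1002 and 664 CPM in LC + sham livers (log2 fold change -1.31 ± 0.28 SE, edgeR adjusted p = 0.0232). Otc, ornithine transcarbamylase, had 148, 141 and 178 CPM in LC + MI livers, against 264, 279 and 266 CPM in LC + sham livers (log2 fold change -0.79, edgeR adjusted p = 0.0218). Gls2, the liver glutaminase, had 136, 78.6 and 89.9 CPM in LC + MI livers, against 364, 227 and 249 CPM in LC + sham livers (log2 fold change -1.46, edgeR adjusted p = 0.0166). Cps1 lost its call without MI 2, MI 3 or sham 2 (edgeR adjusted p of up to 0.0846), Otc without MI 2, sham 2 or sham 3 (up to 0.0953) and Gls2 without MI 2 or MI 3 (up to 0.0722). Of the 10, 1 (without MI 2) to 4 (without MI 1 or sham 1) were lower in fits that each left out 1 liver. Of 33 amino acid transporters 3 were lower and 0 higher. Slc7a2 (ENSMUSG00000031596), the cationic amino acid transporter that brings in arginine, had 71.2, 54.4 and 71.8 CPM in LC + MI livers, against 344, 235 and 274 CPM in LC + sham livers (log2 fold change -2.11 ± 0.25 SE, edgeR adjusted p = 0.00124) and held without each liver. The glutamine transporter gene Slc38a3 had 1011, 541 and 624 CPM in LC + MI livers, against 1939, 1457 and 1348 CPM in LC + sham livers (log2 fold change -1.12, edgeR adjusted p = 0.0243). Slc38a4 had 333, 277 and 309 CPM in LC + MI livers, against 511, 662 and 505 CPM in LC + sham livers (log2 fold change -0.87, edgeR adjusted p = 0.0277). Slc38a3 lost its call without MI 2, MI 3, sham 1 or sham 2 (edgeR adjusted p of up to 0.104) and Slc38a4 without MI 2, MI 3, sham 2 or sham 3 (up to 0.108). Of the transporters, 1 (without MI 2, MI 3 or sham 2) to 4 (without MI 1) were lower.

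Carbohydrate genes changed in both directions. Of 26 genes of glycolysis and glycogen 3 were higher and 3 lower, and 1 (without MI 2, MI 3, sham 2 or sham 3) to 4 (without MI 1) were higher and 0 (without MI 3) to 3 (without MI 1 or sham 1) were lower with 1 liver left out. Gys2, liver glycogen synthase, had 68.8, 79 and 66 CPM in LC + MI livers, against 107, 152 and 139.6 CPM in LC + sham livers (log2 fold change -0.90 ± 0.16 SE, edgeR adjusted p = 0.0114). Ugp2, which makes UDP-glucose, had 65.3, 68.2 and 67.6 CPM in LC + MI livers, against 89.5, 120.1 and 128 CPM in LC + sham livers (log2 fold change -0.75, edgeR adjusted p = 0.0338). Ppp1r3c, a glycogen-targeting subunit of protein phosphatase 1, had 31.5, 30 and 34.5 CPM in LC + MI livers, against 16.4, 9.81 and 12.2 CPM in LC + sham livers (log2 fold change 1.32, edgeR adjusted p = 0.0334). Pfkfb1, which sets fructose 2,6-bisphosphate, had 47.9, 47.9 and 65.5 CPM in LC + MI livers, against 26.3, 36.6 and 30.4 CPM in LC + sham livers (log2 fold change 0.79, edgeR adjusted p = 0.0402). The other gene lower was Ppp1r3g, with 0.15, 0 and 0.0692 CPM in LC + MI livers, against 0.502, 1.74 and 0.747 CPM in LC + sham livers (log2 fold change -3.76, edgeR adjusted p = 0.0444). Gys2 lost its call without MI 3 (edgeR adjusted p of up to 0.0616), Ugp2 whichever liver but sham 1 was left out (up to 0.113) and Ppp1r3c and Ppp1r3g without MI 2, MI 3, sham 2 or sham 3 (up to 0.119 and 0.148). Pfkfb1 lost its call whichever liver but MI 1 was left out (edgeR adjusted p of up to 0.16). Of 21 gluconeogenesis genes, only Sds and Got1 passed, both lower, and 0 (without MI 2) to 3 (without sham 1) were lower with 1 liver left out. Pck1, the rate-limiting enzyme, had 967, 1855 and 1297 CPM in LC + MI livers, against 1653, 2262 and 1639 CPM in LC + sham livers (log2 fold change -0.43, edgeR adjusted p = 0.413).

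Some genes of sterol export into bile, organic anion uptake and drug metabolism fell. The ABCG5 and ABCG8 proteins together export sterols into bile. Abcg8 (ENSMUSG00000024254) had 23.1, 11.3 and 11.4 CPM in LC + MI livers, against 49.7, 60.4 and 54.5 CPM in LC + sham livers (log2 fold change -1.85 ± 0.29 SE, edgeR adjusted p = 0.00603) and held without each liver. Its partner Abcg5 had 54.9, 38.8 and 32.7 CPM in LC + MI livers, against 97.7, 84.7 and 115 CPM in LC + sham livers (log2 fold change -1.23 ± 0.27 SE, edgeR adjusted p = 0.0259). The organic anion uptake gene Slco1a4 had 7.51, 7.4 and 11.5 CPM in LC + MI livers, against 49.6, 12.7 and 30.1 CPM in LC + sham livers (log2 fold change -1.8, edgeR adjusted p = 0.0279). Slco1a1 had 91.6, 62.3 and 53.8 CPM in LC + MI livers, against 99.6, 209 and 136 CPM in LC + sham livers (log2 fold change -1.1, edgeR adjusted p = 0.0378). Abcg5 lost its call without MI 2, MI 3 or sham 3 (edgeR adjusted p of up to 0.109), Slco1a4 whichever liver but sham 2 was left out (up to 0.107) and Slco1a1 without MI 2, MI 3, sham 2 or sham 3 (up to 0.145). With these 4 lower and Nr1h4 higher, 18 of the 23 genes tested that were listed for bile acid synthesis and transport did not pass. Of these genes, 0 (without MI 3 or sham 3) to 1 (without MI 1, MI 2, sham 1 or sham 2) were higher and 1 (without MI 2, MI 3 or sham 3) to 3 (without MI 1, sham 1 or sham 2) were lower in fits that each left out 1 liver. Beside 2.33% lower and 2.68% higher over all genes tested, 3 of 45 cytochrome P450 genes of families 1 to 3 were lower (Cyp2c44, Cyp2a5 and Cyp2u1) and 1 higher (Cyp2c39). Of the 45, 0 (without each but MI 1) to 1 (without MI 1) were higher and 1 (without MI 2, sham 2 or sham 3) to 6 (without MI 1) were lower with 1 liver left out. Cyp2c44 had 155, 116 and 119 CPM in LC + MI livers, against 328, 299 and 235 CPM in LC + sham livers (log2 fold change -1.14 ± 0.20 SE, edgeR adjusted p = 0.00875) and held without each liver. Cyp2a5, the coumarin hydroxylase, had 101, 116 and 200.3 CPM in LC + MI livers, against 317, 725 and 569 CPM in LC + sham livers (log2 fold change -1.95, edgeR adjusted p = 0.019). Of the conjugating enzymes, 4 of 22 glutathione S-transferases, 3 of 18 UDP-glucuronosyltransferases and 2 of 8 sulfotransferases were lower, and Sult1e1 was the 1 higher. Gsta3 had 215, 199.9 and 245 CPM in LC + MI livers, against 400.2, 669 and 604 CPM in LC + sham livers (log2 fold change -1.34, edgeR adjusted p = 0.0211). Ugt2b1 had 99.2, 95.5 and 68.3 CPM in LC + MI livers, against 133, 379 and 194 CPM in LC + sham livers (log2 fold change -1.42, edgeR adjusted p = 0.0318). Sult2a8 had 153, 68.3 and 81.4 CPM in LC + MI livers, against 256, 475 and 299 CPM in LC + sham livers (log2 fold change -1.77, edgeR adjusted p = 0.0134). Cyp2a5 lost its call without MI 2, sham 2 or sham 3 (edgeR adjusted p of up to 0.0782), Cyp2c39 and Cyp2u1 whichever liver but MI 1 was left out (up to 0.124 and 0.153) and Gsta3 and Ugt2b1 without MI 2, MI 3, sham 2 or sham 3 (up to 0.0864 and 0.124). Sult2a8 lost its call without MI 2 or MI 3 (edgeR adjusted p of up to 0.0673). Without MI 2 or MI 3, 0 genes of these 3 enzyme families were lower. These families hold near-identical copies, and their single members are uncertain to that extent.

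Slc30a10 (ENSMUSG00000026614), a manganese exporter, was the 1 of 10 metallothionein and zinc transport genes that passed, with 98.4, 88.1 and 84.4 CPM in LC + MI livers, against 31.5, 23.4 and 16.4 CPM in LC + sham livers (log2 fold change 1.93 ± 0.24 SE, edgeR adjusted p = 0.00151). The metallothionein genes Mt1 and Mt2 had log2 fold changes of 1.05 and 1.45 with overlapping or widely spread livers, and did not pass. Col15a1 (ENSMUSG00000028339), a basement membrane collagen, was the 1 of 30 collagen and matrix genes that passed, with 24.8, 21.4 and 14.5 CPM in LC + MI livers, against 5.74, 7.88 and 5.38 CPM in LC + sham livers (log2 fold change 1.67 ± 0.26 SE, edgeR adjusted p = 0.00603). Klf15, a transcription factor that promotes amino acid breakdown, had 72, 64.8 and 73.2 CPM in LC + MI livers, against 118, 128 and 164 CPM in LC + sham livers (log2 fold change -0.97 ± 0.17 SE, edgeR adjusted p = 0.00875). These 3 calls held without each liver, and 3 matrix genes were higher without MI 1.

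Some genes of the interferon response, antigen presentation and complement fell. Of 47 interferon-stimulated genes tested 5 were lower and 0 higher, with a median log2 fold change of -0.45. Bst2 (ENSMUSG00000046718), the antiviral protein tetherin, had 60.3, 80.2 and 86.4 CPM in LC + MI livers, against 139, 159.8 and 145 CPM in LC + sham livers (log2 fold change -0.97, edgeR adjusted p = 0.00838), and held without each liver. Irf7, the interferon regulatory factor, had 36, 24.1 and 25.8 CPM in LC + MI livers, against 73.3, 51.9 and 39.6 CPM in LC + sham livers (log2 fold change -0.94, edgeR adjusted p = 0.0232). The RNA sensor gene Ifih1 had 11.8, 9.73 and 10.7 CPM in LC + MI livers, against 17, 18.2 and 15.5 CPM in LC + sham livers (log2 fold change -0.66, edgeR adjusted p = 0.0181). Ifi27 and Ifi44 fell with log2 fold changes of -0.92 and -1.43. Irf7 lost its call without MI 2, MI 3, sham 1 or sham 2 (edgeR adjusted p of up to 0.0984), Ifih1 without MI 2, MI 3 or sham 2 (up to 0.0782) and Ifi27 without MI 2, MI 3, sham 2 or sham 3 (up to 0.117). Ifi44 lost its call whichever liver was left out (edgeR adjusted p of up to 0.162). Of the interferon-stimulated genes, 1 (without MI 2, MI 3 or sham 2) to 10 (without MI 1) were lower with 1 liver left out. Of 9 MHC class II genes tested 1 was lower, H2-Ab1, with 7.96, 8.48 and 8.58 CPM in LC + MI livers, against 16, 21.8 and 14.4 CPM in LC + sham livers (log2 fold change -1.06, edgeR adjusted p = 0.0305). H2-Ab1 lost its call without MI 2, MI 3 or sham 2 (edgeR adjusted p of up to 0.109). The median of the 9 was -1.02, and H2-Aa, H2-Eb1 and Cd74, with log2 fold changes of -1.02, -1.02 and -1.12, had no overlap between the groups and did not pass. Of 21 MHC class I and antigen processing genes 3 were lower (Psmb10, Psmb8 and Tapbp), with log2 fold changes of -0.81, -0.74 and -0.73. Psmb10 and Tapbp lost their calls whichever liver but MI 1 was left out (edgeR adjusted p of up to 0.102 and 0.146) and Psmb8 without MI 2, MI 3, sham 2 or sham 3 (up to 0.112). In fits that each left out 1 liver, 0 (without MI 2, MI 3, sham 2 or sham 3) to 5 (without MI 1) were lower, and of the class II genes 0 (without MI 2, MI 3 or sham 2) to 2 (without sham 3) were lower.

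Part of the macrophage markers fell beside these genes. Of 12 Kupffer cell and macrophage markers tested 4 were lower and 0 higher, with a median log2 fold change of -0.82, and 10 of the 12 were lower in every LC + MI liver than in every sham liver, beside 12.1% of all genes tested. They are markers of the same cells, so the 10 are not independent of each other. Clec4f, a lectin restricted to Kupffer cells, had 54.1, 42.3 and 41.2 CPM in LC + MI livers, against 81.4, 82.1 and 62.1 CPM in LC + sham livers (log2 fold change -0.71, edgeR adjusted p = 0.0287). Timd4, a phosphatidylserine receptor of resident macrophages, had 1.2, 1.53 and 1.73 CPM in LC + MI livers, against 4.59, 3.89 and 2.88 CPM in LC + sham livers (log2 fold change -1.34, edgeR adjusted p = 0.0283). The complement genes C1qa and C1qc, which macrophages express, had log2 fold changes of -0.84 and -1.0. Clec4f and Timd4 lost their calls without MI 2, MI 3, sham 1 or sham 2 (edgeR adjusted p of up to 0.118 and 0.093) and C1qa and C1qc whichever liver was left out (up to 0.115 and 0.148). Of 34 complement genes 5 were lower and 0 higher. Among the others were the hepatocyte products C1ra and Cfi, with log2 fold changes of -0.57 and -0.64. C1ra lost its call without MI 2, MI 3, sham 2 or sham 3 (edgeR adjusted p of up to 0.167) and Cfi whichever liver was left out (up to 0.172). With 1 liver left out, 0 (without MI 2, MI 3, sham 1 or sham 2) to 2 (without MI 1 or sham 3) were lower among the macrophage markers and 0 (without MI 2, MI 3, sham 2 or sham 3) to 8 (without MI 1) were lower among the complement genes. Summed over the 12 markers, the Kupffer cell and macrophage level was 164, 185 and 182 CPM in LC + MI livers, against 316, 330 and 252 CPM in LC + sham livers (exact permutation test, two-sided p = 0.1, the smallest possible). Markers of T, B and NK cells, 6 of 11 tested, summed to 1.49 to 2.49 CPM in LC + MI livers and 3.29 to 8.58 CPM in LC + sham livers (p = 0.1 in the same exact test). Erythroid markers, 5 of 7 tested, summed to 137 to 175 CPM in LC + MI livers and 230 to 293 CPM in LC + sham livers (p = 0.1 in the same exact test). The part of these cells in the falls of interferon, MHC and complement genes was not tested.

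Other cell markers overlapped between the groups. The 6 of 10 neutrophil markers tested summed to 10.6 to 20.3 CPM in LC + MI livers and 4.71 to 13 CPM in LC + sham livers. Ly6g, Ngp, Camp and Ltf had too few counts to be tested. S100a9 had 3.01, 6.92 and 3.22 CPM in LC + MI livers, against 3.37, 1.81 and 1.01 CPM in LC + sham livers (log2 fold change 1.08, edgeR adjusted p = 0.126). The 8 endothelial markers summed to 143 to 147 CPM in LC + MI livers and 125 to 147 CPM in LC + sham livers, and the 8 stellate cell markers to 178 to 239 CPM in LC + MI livers and 205 to 260 CPM in LC + sham livers. None of 5 pancreas markers had enough counts. Among markers of neutrophils, lymphocytes, dendritic cells, endothelial cells, stellate cells, cholangiocytes, platelets and erythroid cells 0 of 42 genes passed in edgeR or DESeq2. At an unadjusted p under 0.05, 3 were higher and 8 lower, and 2 neutrophil markers passed as higher without sham 1. Of 10 hepatocyte markers, Ass1 and Cps1 were lower, and the list summed to 73597 to 80614 CPM in LC + MI livers and 76878 to 87202 CPM in LC + sham livers.

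**Figure D4:**
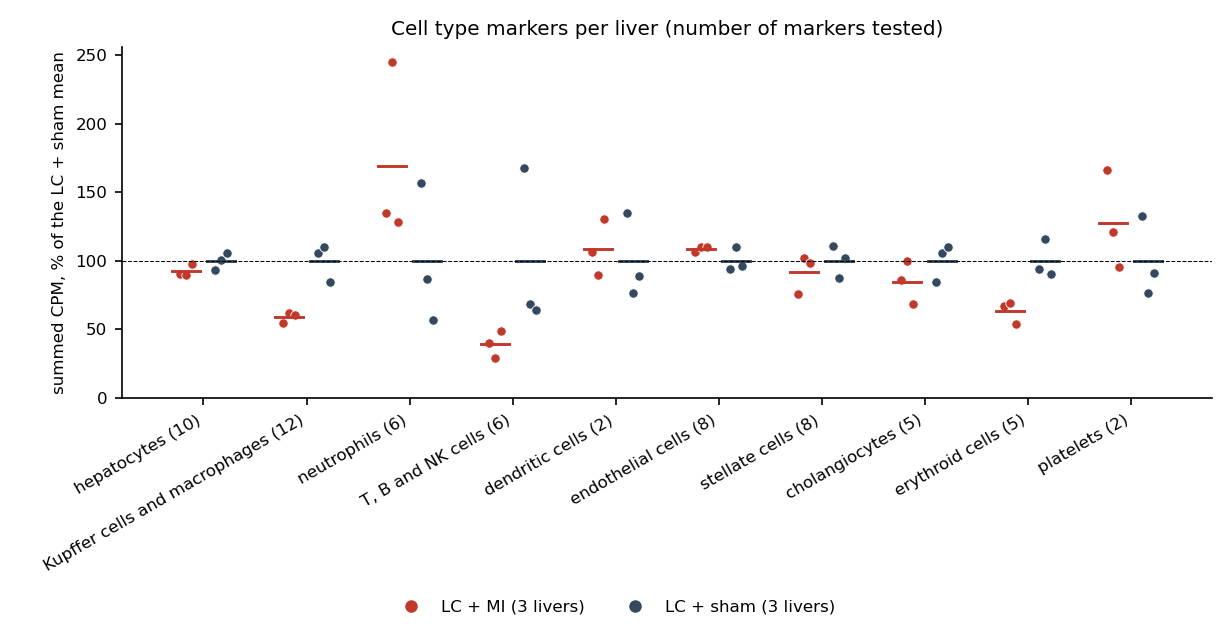
Summed CPM of each list of cell type markers in each liver, as a percentage of the mean of the 3 LC + sham livers (dashed line at 100), with LC + MI livers left of LC + sham livers, points for livers and bars for group means. The LC + MI livers were at 54.8 to 61.7% for Kupffer cell and macrophage markers and 54.0 to 69.0% for erythroid markers, below every LC + sham liver, while neutrophil, endothelial, stellate and dendritic cell markers overlapped.

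Mitochondrially encoded transcripts were higher in part. Of 15 tested 2 passed, both subunits of complex I. mt-Nd5 had 9362, 4562 and 5525 CPM in LC + MI livers, against 2798, 2632 and 2616 CPM in LC + sham livers (log2 fold change 1.27, edgeR adjusted p = 0.0189). mt-Nd6 had 2879, 1694 and 1914 CPM in LC + MI livers, against 997, 930.4 and 1059 CPM in LC + sham livers (log2 fold change 1.12, edgeR adjusted p = 0.0201). mt-Nd5 lost its call without sham 2 or sham 3 (edgeR adjusted p of up to 0.0643) and mt-Nd6 without MI 3, sham 2 or sham 3 (up to 0.0741). For 11 of the 15 every LC + MI liver was above every sham liver, beside 12.6% of all genes tested, with replicate 1 the highest. All 15 enter the mitochondrially encoded share of the counts given above, so the 11 are not independent of each other. The most abundant, mt-Co1 of complex IV, had 88029, 37317 and 46479 CPM in LC + MI livers, against 29529, 24075 and 27066 CPM in LC + sham livers (log2 fold change 1.09, edgeR adjusted p = 0.0569). The ribosomal RNAs mt-Rnr1 and mt-Rnr2 had log2 fold changes of -0.59 and -0.49 and did not pass. In the nuclear genome, of 82 respiratory chain genes and 81 cytosolic ribosomal protein genes tested 0 passed (edgeR), with median log2 fold changes of -0.09 and 0.20. At an unadjusted p under 0.05, 2 respiratory chain genes were higher and 5 lower, and 11 ribosomal protein genes were higher and 0 lower. In DESeq2 1 respiratory chain gene and 3 ribosomal protein genes were higher. Without MI 1, 1 respiratory chain gene was lower and 2 ribosomal protein genes were higher. Of the mitochondrially encoded genes, 0 (without sham 2 or sham 3) to 2 (without MI 1, MI 2 or sham 1) were higher and 0 (without each but MI 1) to 2 (without MI 1) were lower with 1 liver left out. Of 22 cytosolic heat shock genes, Hspa1b and Hspa1a alone passed, both lower, and of 38 proteasome genes Psmb10 and Psmb8.

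**Figure D5:**
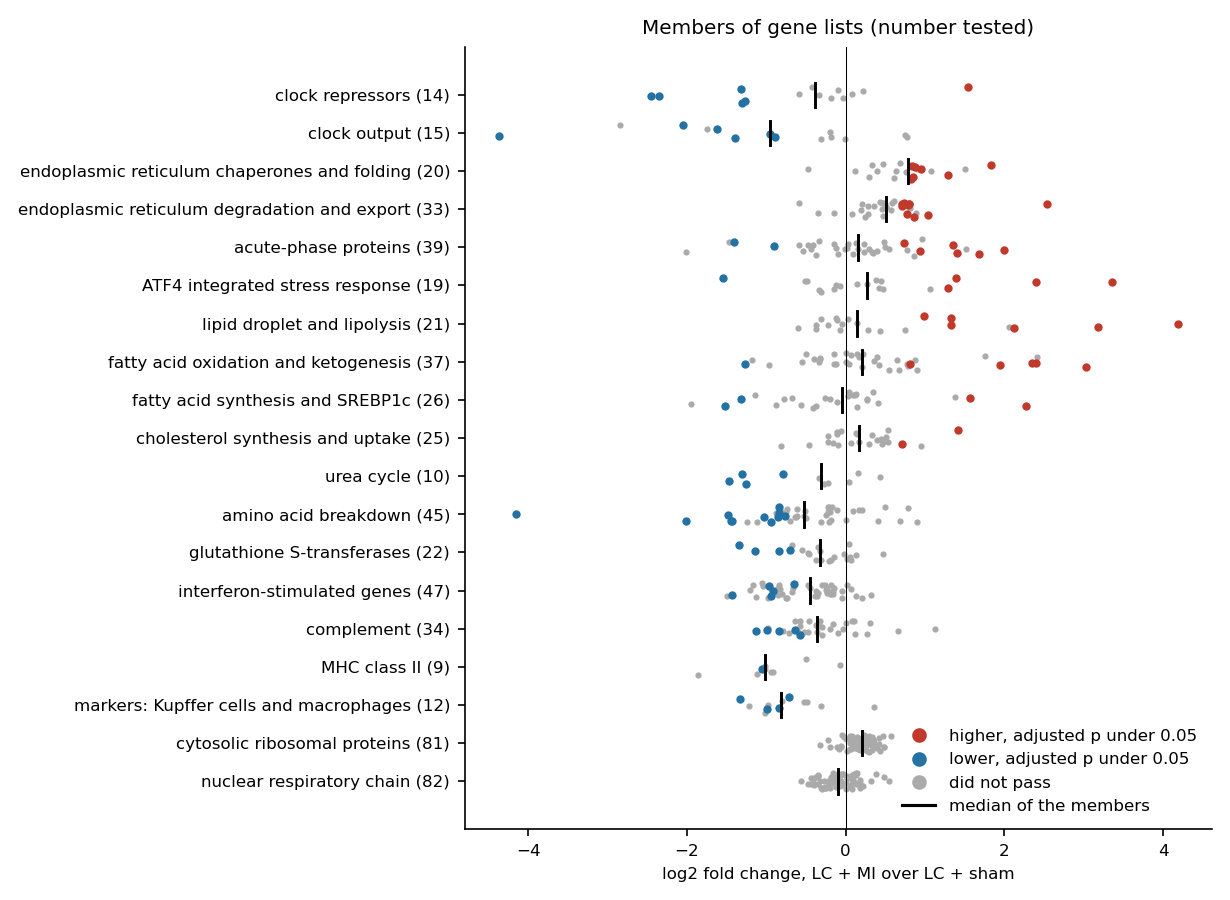
log2 fold change of LC + MI over LC + sham (x axis) for the tested members of 19 gene lists, with each point a gene, colored where its adjusted p was under 0.05, and a black bar at the median. The members of the 2 ER lists lie mostly right of 0, those of amino acid breakdown, interferon-stimulated genes and macrophage markers mostly left, and no member of the ribosomal protein or respiratory chain lists is colored.

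By gene class, 167 of the genes called higher and 137 of those called lower were protein coding, which is 2.38% of 12766 tested. Noncoding and other genes gave 34 higher and 10 lower of 1151 tested (3.82%). Of the genes tested, 14246 could be matched to the GENCODE annotation by identifier.

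The LC response was set beside that of the knockout livers, which share no sample with it but enter the same fit. Of the 206 genes called higher in LC + MI livers, 155 were also higher in HMRKO + MI than in HMRKO + sham livers at an adjusted p under 0.05 (22.0% of all genes tested were) and 2 were lower. Of the 149 called lower, 117 were also lower (21.7% of all genes tested were) and 0 higher. The difference between the 2 genotypes passed in the interaction test at an adjusted p under 0.05 for 39 of the 206 (18.9%) and 35 of the 149 (23.5%), beside 15.2% of all genes tested. Since LC values enter the interaction test, these shares are not independent of the calls. In 27 of the 39 and 25 of the 35, the change had the same sign and a larger size in HMRKO livers. Insig2 had 533, 386 and 582 CPM in HMRKO + MI livers, against 44.8, 34.3 and 28.6 CPM in HMRKO + sham livers. Serpina3n had 6497, 8404 and 5408 CPM in HMRKO + MI livers, against 812, 839 and 561 CPM in HMRKO + sham livers. Slc7a2, which fell in LC livers, had 204, 179 and 244 CPM in HMRKO + MI livers, against 334, 209.9 and 168 CPM in HMRKO + sham livers, with overlapping groups there (HMRKO log2 fold change -0.18). Dbp and Arntl kept their directions. Dbp had 7.94, 8.22 and 9.9 CPM in HMRKO + MI livers, against 289, 308 and 291 CPM in HMRKO + sham livers. Arntl had 5.82, 5.0 and 4.52 CPM in HMRKO + MI livers, against 0.335, 0.337 and 0.614 CPM in HMRKO + sham livers. Their interactions did not pass (edgeR adjusted p = 0.163 and 0.536).

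The 6 livers of C57 mice taken 12 hours after the operation are in a separate table. Their MI libraries held 16745645 to 19190405 counts and their sham libraries 1361506 to 2255782, so that depth and operation cannot be told apart there. Of the 206 genes called higher at 1 day in LC livers, 152 could be matched by symbol to a gene tested at 12 hours. Genes with too few counts at 12 hours were left unmatched, so the matched numbers depend on depth there too. Of these, 105 were also higher at 12 hours at an adjusted p under 0.05 (edgeR, 34.3% of all genes tested there were) and 12 were lower. Of the 149 called lower 121 were matched, of which 55 were also lower (32.0% of all genes tested were) and 11 higher.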

How the data were processed

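Liver RNA of 12 mice at 1 day was sequenced (TruSeq libraries, per the paper's methods). The authors deposited raw gene counts for these livers. For 6 other livers at 12 hours they deposited estimated (expected) counts, FPKM and TPM values in a separate table, of which only the estimated counts, rounded to whole numbers, were used; columns with the authors' own fold changes and p-values were not. Tools listed in the submitters' processing notes are TopHat2, HISAT2 2.1.0, Bowtie2 2.2.3 and DESeq2, with mm9 as the build. Which program counted reads, with what annotation and whether by strand, is not given in the sources used here. Overlapping, antisense and near-identical genes can share reads. Columns of values mapped to no sample numbered 0.

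Genes passing filterByExpr (minimum count 10, minimum total 15) were fitted with edgeR 4.0.16 (R 4.3.3, limma 3.58.1): TMM scaling, 1 coefficient for each of 4 groups of 3 livers and the quasi-likelihood test with Benjamini-Hochberg adjustment over all genes tested. Calls needed an adjusted p under 0.05 and a change of over 2-fold, after the study's rule. The genotype difference was the interaction contrast. Each SE was taken as the size of the log2 fold change over the square root of the F statistic of its test. It is therefore not an estimate separate from the p-value. Mitochondrial share, totals and marker sums were compared by two-sided exact permutation tests, for which 0.1 is the smallest p. Alternatives were DESeq2 1.42.0, RLE scaling, other filters, a replicate term, the 6 LC livers alone and each liver left out.

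The 54 gene lists, 11 marker lists and the rule for named genes were chosen with earlier results of these data known. The rule took the 15 largest rises and 15 largest falls without overlap, up to 8 passing members of each list by p, up to 3 members by level where fewer than 3 passed, the 10 called genes of highest level and the genes of the study's axis. Genes with a promoter motif and some other list members were named after their values were seen. Promoters (250 bases before to 50 after a start) are from RefSeq, GRCm38.p6, and gene classes from GENCODE. Results for some genes of these lists are not reported here.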

Additional observations from a re-analysis of the deposited data

Results flagged for a closer look

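Among 201 genes named in the text, the following 40 changed differently with MI in LC and HMRKO livers (edgeR interaction test, adjusted p under 0.05). Many of the 201 were named for their change in LC livers, so the differences are not independent of that choice. Some lay close to the threshold, such as Gadd45a and mt-Rnr1 (edgeR adjusted p = 0.0499 and 0.0493). Each difference is the log2 fold change in LC livers minus that in HMRKO livers, with both beside it. Over all genes tested 15.2% differed in this way, and the causes were not tested.

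The rise was larger in HMRKO livers for Slc34a2 by -2.89 (LC 3.23, HMRKO 6.12), E030018B13Rik by -2.83 (LC 4.17, HMRKO 7.0), Cdkn1a by -2.58 (LC 4.65, HMRKO 7.23), Fgf21 by -2.51 (LC 2.40, HMRKO 4.92) and Mthfd2 by -2.31 (LC 1.29, HMRKO 3.59). Smaller differences of this kind were those of Insig2 by -2.23 (LC 1.57, HMRKO 3.80), Igdcc4 by -2.11 (LC 4.26, HMRKO 6.37), Serpina3m by -1.88 (LC 1.35, HMRKO 3.23), Fgb by -1.86 (LC 0.94, HMRKO 2.80) and Hspa5 by -1.74 (LC 0.69, HMRKO 2.44). Further genes of this kind differed, Serpina3n by -1.52 (LC 1.68, HMRKO 3.20), Hsp90b1 by -1.51 (LC 1.08, HMRKO 2.59), Saa1 by -1.28 (LC 0.13, HMRKO 1.41), Saa2 by -1.19 (LC 0.34, HMRKO 1.53) and Sdf2l1 by -1.14 (LC 1.83, HMRKO 2.97). The least of them were Ccnf by -0.88 (LC 1.31, HMRKO 2.19) and Stat3 by -0.88 (LC 0.07, HMRKO 0.94).

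The fall was larger in HMRKO livers for Nrep by 3.45 (LC -2.50, HMRKO -5.95), Afmid by 2.28 (LC -1.43, HMRKO -3.71), mt-Rnr1 by 1.95 (LC -0.59, HMRKO -2.54), Serpina6 by 1.91 (LC -3.07, HMRKO -4.98) and Usp2 by 1.75 (LC -1.39, HMRKO -3.14). Among the other falls, the difference was seen for Fbxl21 by 1.46 (LC -0.10, HMRKO -1.56), Psmb10 by 1.37 (LC -0.81, HMRKO -2.18), Srebf1 by 1.20 (LC -1.52, HMRKO -2.72), Gadd45a by 1.11 (LC -1.03, HMRKO -2.15) and Per3 by 0.81 (LC -1.26, HMRKO -2.08). The least of these was Tef by 0.78 (LC -0.95, HMRKO -1.73).

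Genes that fell or rose in LC livers but moved the other way, or less, in HMRKO livers were Lpin1 by -3.38 (LC -1.74, HMRKO 1.64), Slco1a4 by -2.42 (LC -1.80, HMRKO 0.62), Slc7a2 by -1.93 (LC -2.11, HMRKO -0.18), Pfkfb1 by 1.83 (LC 0.79, HMRKO -1.04) and Got1 by -1.73 (LC -1.44, HMRKO 0.29). Smaller differences of this sort were those of Serpina1e by -1.71 (LC -1.41, HMRKO 0.29), Nr1i3 by 1.58 (LC 0.89, HMRKO -0.69), mt-Co1 by 1.54 (LC 1.09, HMRKO -0.45), Cps1 by -1.45 (LC -1.31, HMRKO 0.14) and Ass1 by -1.39 (LC -1.26, HMRKO 0.13). The rest differed, Il6ra by -1.30 (LC -0.52, HMRKO 0.78) and Xbp1 by -1.30 (LC -0.28, HMRKO 1.01).

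Of these, Fbxl21, Hsp90b1, Hspa5, Lpin1, Saa1, Saa2, Stat3, Xbp1, mt-Co1 and mt-Rnr1 did not pass in LC livers.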

How the results depend on the processing

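The 355 genes called between LC + MI and LC + sham livers became 99 (61 higher, 38 lower) when a log2 fold change beyond 2 was required, 714 with no fold change threshold, 604 (314 and 290) with no filter beyond 1 count, and 207 (118 and 89) in a fit of the 6 LC livers alone. Leaving out 1 LC liver gave 140 (without MI 2) to 555 (without MI 1) genes, with 143 without MI 3, 195 without sham 2 and 201 without sham 3. The filter and the number of livers change how many genes are tested and how the spread is estimated, and the cause of the difference between livers was not tested. The count stayed within 1.5 times with RLE size factors (205 and 151), DESeq2 (275 and 241), a stricter filter (202 and 147), mitochondrially encoded genes left out (201 and 154) and with 1 HMRKO liver left out at a time (301 to 377, chosen after seeing the data). Of the 355, 194 had an adjusted p under 0.05 in the fit of the LC livers alone and 355 in DESeq2, and 0 turned in sign with 1 LC liver left out. The interaction called 1441 genes, and 806 (without sham 2) to 1700 (without MI 2) with 1 liver left out, with 873 without MI 1 and 959 without HMRKO + sham replicate 2. Counts for the knockout livers (2914) and at 12 hours (6552) stayed within 1.5 times under all alternatives run.

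Deviations of same-numbered livers had correlations of 0.165, 0.182 and -0.04 in LC pairs and -0.10, -0.06 and -0.02 in HMRKO pairs. LC + MI replicates 1 and 2 correlated best with the sham liver of their number and replicate 3 did not, and since not every pair was above 0.1 the numbers were not taken to pair the livers. With a replicate block 348 genes were called (198 and 150), and 287 of the 355 had an adjusted p under 0.05. Depth limits low-level genes: Gm45236 rests on 48, 20 and 11 reads.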

Other observations

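Gene lists outside the main account gave few changes. Of 26 growth hormone, STAT5 and sex-biased male genes, 3 were lower and 0 higher. Ghr, the growth hormone receptor, had 187, 183 and 191 CPM in LC + MI livers, against 234, 328 and 294 CPM in LC + sham livers (log2 fold change -0.61, edgeR adjusted p = 0.0346), Nudt7 had a log2 fold change of -1.46, and Slco1a1 is the third. The 19 major urinary protein genes had a median log2 fold change of 0.52 with 0 that passed in edgeR (1 higher in DESeq2, 1 higher without MI 3, and 2 higher at an unadjusted p under 0.05), and their near-identical copies may share reads. Of 17 pericentral Wnt targets 1 was lower, Gulo, which makes vitamin C, with 167, 109.7 and 144 CPM in LC + MI livers, against 209.9, 348 and 239 CPM in LC + sham livers (log2 fold change -0.92, edgeR adjusted p = 0.0223). Of 14 cytochrome P450 genes of family 4, Cyp4f17 rose with a log2 fold change of 0.94 beside the 3 Cyp4a genes, and Cyp4f14 fell, with -1.03. Ghr lost its call without MI 2, MI 3, sham 2 or sham 3 (edgeR adjusted p of up to 0.127), Nudt7, Gulo and Cyp4f14 without MI 2, MI 3 or sham 2 (up to 0.101, 0.093 and 0.0772) and Cyp4f17 without MI 1, MI 3, sham 2 or sham 3 (up to 0.092).

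Of 27 iron and heme genes, Lcn2 was higher and Fech, which inserts iron into protoporphyrin to form heme, was lower. Fech had 43.2, 44.6 and 47.8 CPM in LC + MI livers, against 74.1, 75.1 and 68.1 CPM in LC + sham livers (log2 fold change -0.68, edgeR adjusted p = 0.0181). Hamp, the iron hormone hepcidin, had 1019, 2073 and 2380.3 CPM in LC + MI livers, against 1529.9, 948 and 1406 CPM in LC + sham livers (log2 fold change 0.49, edgeR adjusted p = 0.377). Of 20 NRF2 targets, Srxn1, which repairs peroxiredoxins, rose with 33.5, 41.9 and 35.5 CPM in LC + MI livers, against 22.1, 21 and 24 CPM in LC + sham livers (log2 fold change 0.72, edgeR adjusted p = 0.0201) and Gstm3 fell, with a log2 fold change of -1.14. Of 23 liver transcription factors, Nr1h4 was higher and Klf15 and Foxo3 lower, Foxo3 with 23.6, 16.8 and 16.8 CPM in LC + MI livers, against 25.8, 34.2 and 35.2 CPM in LC + sham livers (log2 fold change -0.74, edgeR adjusted p = 0.0267). Of 32 coagulation genes and 22 activin, BMP and Id genes only Fgb and Inhbe passed, both higher. Of the coagulation genes 0 (without MI 2, MI 3, sham 2 or sham 3) to 2 (without MI 1) were higher and 0 (without MI 2, MI 3, sham 1 or sham 2) to 3 (without MI 1) were lower with 1 liver left out, and of the activin, BMP and Id genes 0 (without each but sham 1) to 1 (without sham 1) were higher and 0 (without each but MI 1) to 1 (without MI 1) were lower. Of 27 ribosome biogenesis genes 0 passed (edgeR or DESeq2; 1 was higher and 2 lower at an unadjusted p under 0.05, and 1 higher without MI 1). Fech lost its call without MI 2, MI 3 or sham 2 (edgeR adjusted p of up to 0.0716), Srxn1 and Foxo3 without MI 2, MI 3, sham 2 or sham 3 (up to 0.0873 and 0.114) and Gstm3 whichever liver but MI 1 was left out (up to 0.148).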
